A study of Mus with 4 samples.

Results

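Collagens are the triple-helical proteins of the extracellular matrix, and each is built from 3 alpha chains with a gene of their own. Fibrillar collagens (types I, II, III, V, XI, XXIV and XXVII) make the fibrils of the nerve sheaths, type IV makes the network of basement membranes, and others sit on fibrils, form beaded filaments or cross the cell membrane. In a dorsal root ganglion (DRG) the fibroblasts of the sheath, the vessel wall and the glia that wrap neurons are all known to make collagen. All genes whose symbol is Col, a number, the letter a and a number, and that had at least 20 UMIs (unique molecular identifiers, each marking 1 captured RNA molecule) summed over the 4 libraries, were taken as members. This gave 44 genes of 31253 in the files. The fewest UMIs were those of Col6a6 with 27, Col9a1 with 47 and Col4a6 with 52, and the most those of Col1a2 with 66168, Col3a1 with 41820 and Col1a1 with 30194. No collagen gene fell under the minimum, and each of the 44 was seen in every library.

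The cells came from dissociated left L4-5 DRGs of wild-type adult male C57BL/6J mice. CON mice were naïve, without a sham operation, and CCI mice had a chronic constriction injury of the sciatic nerve and were taken 3 d later. Each group had 2 droplet libraries. No source used here says how many mice went into a library. The p-values below therefore rest on the variation among libraries, which may be technical.

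Of 37451 barcodes 35113 were kept, and the libraries held between 52074235 and 135009606 UMIs. CON replicate 2 stood apart, with 2613 kept cells against 10602 to 11155 in the others and a median of 8352 UMIs per cell against 2508 to 4552. Pairs of libraries shared 12 to 31 barcodes. The labels call the cell type Neuron, but neuron-like cells were 11.9% to 17.2% of kept cells. Cells were grouped by clustering without the collagen genes and named from markers. All 12 fibroblast markers, all 13 mural markers and all 8 endothelial markers were highest in their own class in every library, as were 9 of 10 neuron markers and 15 of 21 glial markers. Fibroblast-like cells numbered 415 and 45 in CON and 409 and 888 in CCI, so the CON value of replicate 2 rests on few cells. Mural-like cells, the pericytes and smooth muscle of the vessel wall, numbered 437 and 103 in CON and 524 and 423 in CCI.

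Fibroblast-like cells gave the largest part of their RNA to collagen. Collagen made up 1.18% and 3.09% of their UMIs in CON and 1.12% and 1.43% in CCI. The share was 0.164% to 0.291% in mural-like cells, 0.146% to 0.195% in glia-like cells and 0.0790% to 0.107% in endothelial-like cells. It was lowest in neuron-like cells, at 0.00449% to 0.00986%. In every library the fibroblast-like share was above that of every other class. Of the collagen UMIs of these 5 classes, fibroblast-like cells held 32.8% and 25.1% in CON and 30.9% and 57.8% in CCI. The value of 57.8% came from the library with 888 fibroblast-like cells, and the groups overlapped. These shares follow how many cells of each class a library holds and were not tested, since 2 libraries against 2 allow no two-sided exact permutation p below 0.333. More cells of a type and more RNA per cell cannot be told apart in the share of a whole library.

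**Figure D1:**
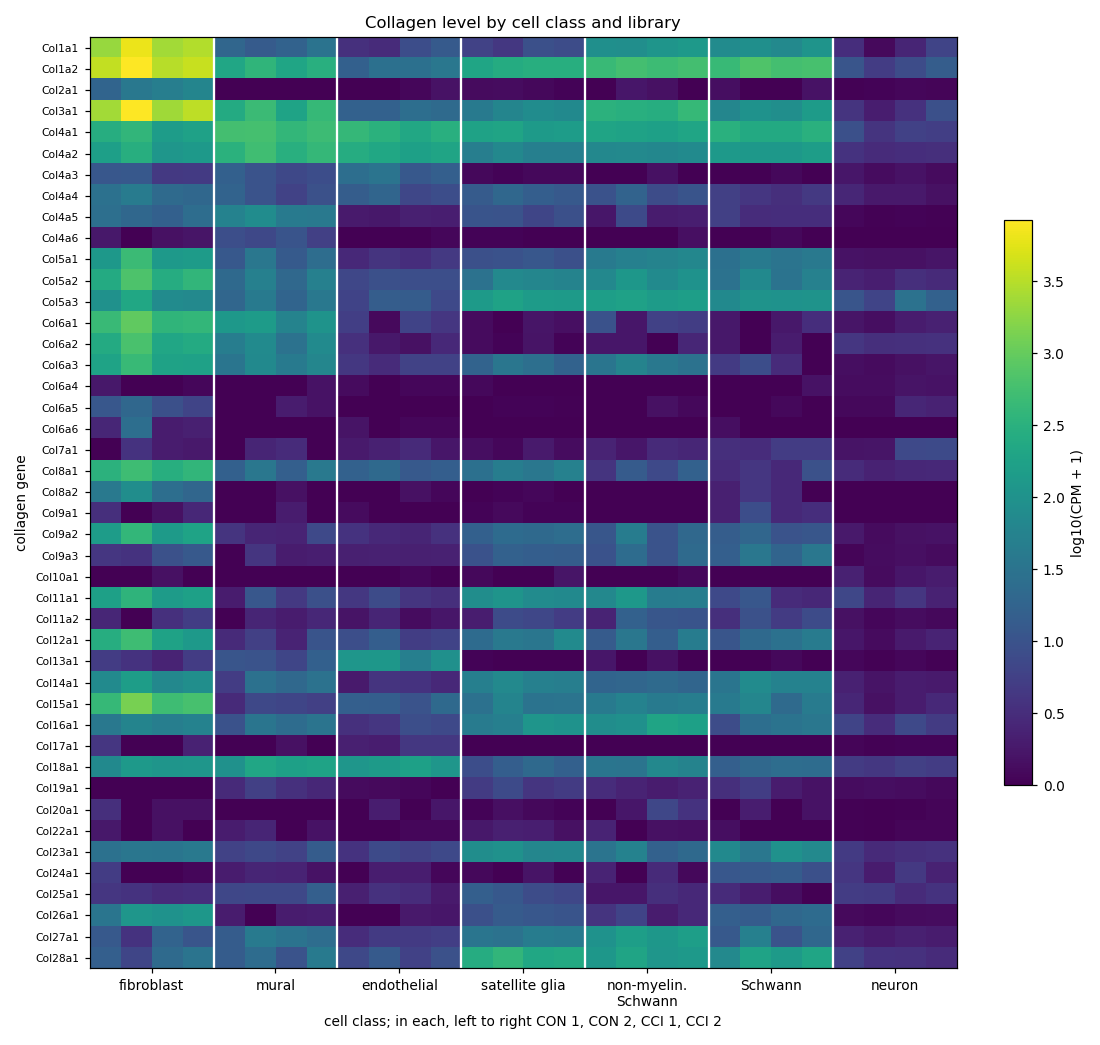
Level of each of the 44 collagen genes (rows) as log10 of CPM + 1 (CPM, UMIs scaled to the total of a class in a library), in 7 cell classes with 4 libraries each (columns). Col1a1, Col1a2 and Col3a1 are brightest in fibroblast-like cells, Col4a1 and Col4a2 in mural-like cells, Col28a1 in satellite glia-like cells and Col13a1 in endothelial-like cells.

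Levels are given below as CPM, the UMIs of a gene scaled to the total UMIs of its class in a library, in the order CON replicates 1 and 2, then CCI replicates 1 and 2. The kit tags the 3′ end of each RNA, so these levels are not divided by length. Differences between classes are described library by library and were not tested.

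The fibrillar chains of types I and III led in fibroblast-like cells. Col1a2, the alpha-2 chain of type I, stood at 3726, 8170, 3170 and 3988 CPM. Col3a1, the single chain of type III, stood at 2439, 8416, 2343 and 3477. Col1a1, the alpha-1 chain of type I, stood at 2065, 6478, 2376 and 3012. CON replicate 2, with its 45 cells, was the highest library for all 3, and the other 3 libraries lay close together. Fibrillar chains together were 75.3% to 80.3% of the collagen UMIs of these cells in the 4 libraries. Next came Col15a1, a collagen of basement membrane zones, at 421, 1301, 506 and 601, and Col6a1 of the beaded filaments of type VI at 463, 919, 371 and 392. Its partners Col6a2 and Col6a3 stood at 207 to 626 and at 175 to 447. The type V partners Col5a1 and Col5a2 stood at 124 to 472 and at 254 to 684. Some collagens came mostly from this class, where 89.8% of Col2a1 UMIs of all kept cells, 89.7% of Col1a1, 89.1% of Col8a2 and 81.8% of Col6a1 were found, against 42.6% of all collagen UMIs.

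Clustering without integration split the fibroblast-like cells into clusters with different collagens, again with the collagen genes left out. A cluster led by Saa1 and Osr2 held 262, 31, 303 and 723 cells, and a cluster led by Mfap4 and Lypd2 held 135, 14, 100 and 164. Col12a1, which binds to the surface of fibrils, stood at 707, 1328, 801 and 811 CPM in the Mfap4-led cluster. In the Saa1-led cluster its highest library was under 10 CPM, so the clusters did not overlap. Col8a1, a short-chain network collagen, was also higher in the Mfap4-led cluster, at 549, 851, 446 and 454 against 211, 307, 245 and 380.5. Col15a1 went the other way, at 673, 1808, 637 and 694 in the Saa1-led cluster against 43.8, 477, 67.9 and 101 in the Mfap4-led cluster. Col9a2, a fibril-associated chain best known from cartilage, stood at 245, 645, 175 and 221 in the Saa1-led cluster, and Col26a1 at 54.5, 185, 124 and 140. Both type I chains were high in both clusters.

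**Figure D2:**
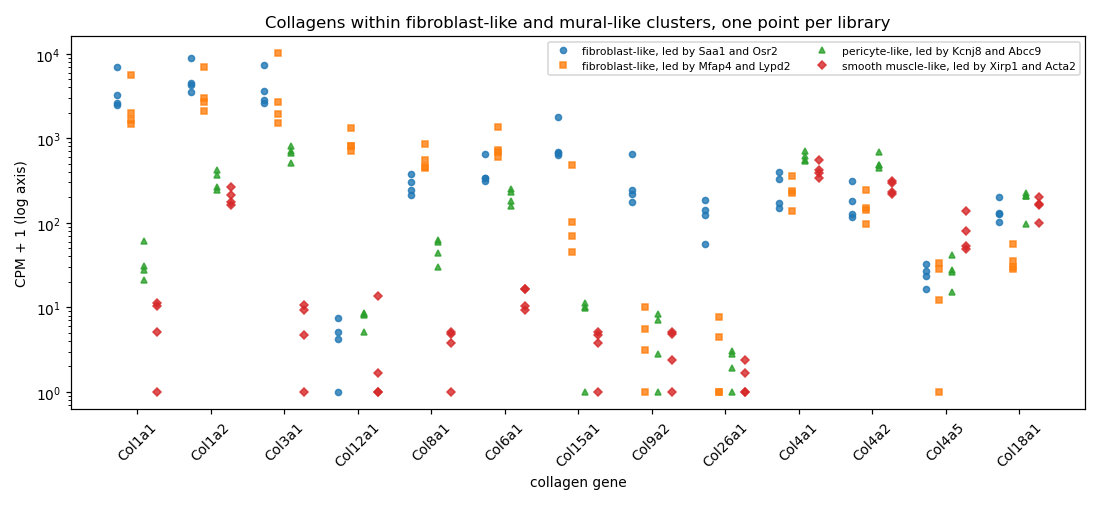
CPM + 1 (log axis) of 13 collagens in the fibroblast-like and mural-like clusters of the clustering without integration, 1 point per library. Col12a1 separates the Mfap4-led fibroblast-like cluster (707 to 1328) from the Saa1-led one, and Col3a1 separates pericyte-like cells (516 to 812) from smooth muscle-like cells.

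Type IV, the basement membrane collagen, took the largest share of the collagen UMIs of vessel wall cells in every library. In mural-like cells Col4a1 stood at 556, 588, 393 and 493 CPM and its partner Col4a2 at 322, 523, 300.3 and 415. Type IV chains were 38.5% to 51.5% of their collagen UMIs. Col3a1 followed at 251, 480, 189 and 431 and Col1a2 at 212, 366, 202 and 300.2, with little Col1a1, at 12.4 to 30.6. Pericyte-like cells carried the Col3a1, at 516, 812, 662 and 706, while smooth muscle-like cells stood at no more than 10 CPM. Col4a5 was higher in smooth muscle-like cells, at 78.2, 138, 48.3 and 52.9, against 26.7, 40.6, 14.1 and 25.5 in pericyte-like cells. Col4a6, the least abundant type IV chain, had 76.5% of its UMIs in kept cells in mural-like cells.

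Endothelial-like cells used type IV for 52.6% to 67.3% of their collagen UMIs, with Col4a1 at 408, 322, 228 and 303 and Col4a2 at 269.6, 214, 168 and 196 CPM. Col18a1, whose C-terminal fragment is endostatin, stood at 114, 136, 167 and 116. Its mean over the 4 libraries was higher in mural-like cells, at 166.3 CPM against 133.4. Col13a1, a transmembrane collagen, stood at 114, 118, 48.6 and 92.7, and 92.7% of its UMIs came from this class. Col4a3, a chain of a second type IV network, was also mostly endothelial, with 60.7% of its UMIs. There it stood at 25.5, 31.3, 11.2 and 14.2, and Col4a4, its partner, at 13.2, 18.3, 5.94 and 7.55. In glia-like cells the pair was uneven, with 872 UMIs of Col4a4 against 12 of Col4a3. Glia-like cells held the most Col4a1 UMIs, 13086 against 5516 in endothelial-like and 2598 in mural-like cells. Their mean Col4a1 level was lower, at 184.3 CPM against 315.5 and 507.5. Type IV chains were 13.6% to 19.9% of the collagen UMIs of glia-like cells.

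Glia-like cells had a collagen set of their own order. Col28a1, a collagen found mainly in peripheral nerve, stood at 269, 387, 217 and 244 CPM in satellite glia-like cells, and 92.5% of its UMIs came from glia-like cells. Col1a2 was as abundant, at 201, 259, 287 and 292, but Col1a1 stood at 4.95, 3.26, 8.13 and 7.26. The ratio of Col1a2 to Col1a1 UMIs was 35.4 to 79.5 in satellite glia-like cells, 5.63 to 8.15 in Schwann-like cells, 4.33 to 6.67 in non-myelinating Schwann-like cells and 1.26 to 1.80 in fibroblast-like cells. The ranges of satellite glia-like and fibroblast-like cells did not overlap. The ratio to fibroblast markers differed as well, by an amount that depended on the marker. Col1a2 was 11.8 to 44.0 times the UMIs of Dcn in satellite glia-like cells and 0.106 to 0.267 times in fibroblast-like cells. Against Lum the ranges were closer, at 3.68 to 7.43 times in satellite glia-like cells and 0.701 to 2.27 times in fibroblast-like cells. The 12 fibroblast markers summed to 635 to 1037 CPM in satellite glia-like cells, and 10 of them were above 0 in all 4 libraries.

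**Figure D3:**
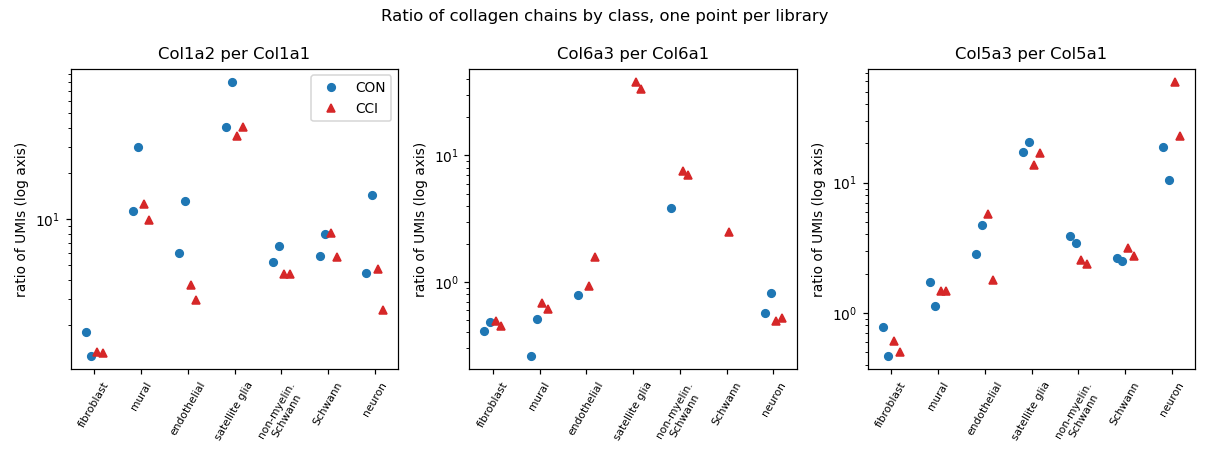
Ratio of UMIs of 2 chains of the same collagen type by cell class (log axis), 1 point per library (circles CON, triangles CCI), shown where the denominator had over 3 UMIs. Col1a2 per Col1a1 is 35.4 to 79.5 in satellite glia-like cells and 1.26 to 1.80 in fibroblast-like cells.

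Type VI and type V chains were uneven in satellite glia-like cells in the same manner. Col6a3 had 1189 UMIs in satellite glia-like cells against 21 of Col6a1 and 14 of Col6a2, while in fibroblast-like cells Col6a3 was 0.410 to 0.493 times Col6a1. In Schwann-like cells it was 26 UMIs of Col6a3 against 10 of Col6a1, and in non-myelinating Schwann-like cells 326 against 41. Col5a3, the third chain of type V, was 13.6 to 20.4 times Col5a1 in satellite glia-like cells and 0.468 to 0.773 times in fibroblast-like cells. The Col5a3 ratio was 2.49 to 3.12 in Schwann-like, 2.39 to 3.89 in non-myelinating Schwann-like and 10.5 to 59.1 in neuron-like cells. Its level in satellite glia-like cells was 136, 181, 142 and 138 CPM. Col11a1, the type XI partner of these fibrils, stood there at 82.1, 105, 77.0 and 73.2, and Col23a1, a transmembrane collagen, at 81.9, 95.0, 61.6 and 64.0. Col27a1, a fibrillar chain, was highest in non-myelinating Schwann-like cells, at 99.7, 157, 120 and 159. Col24a1, another fibrillar chain, stood at 10.5, 11.6, 12.9 and 7.96 in Schwann-like cells and at no more than 2 in the other glia-like cells.

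**Figure D4:**
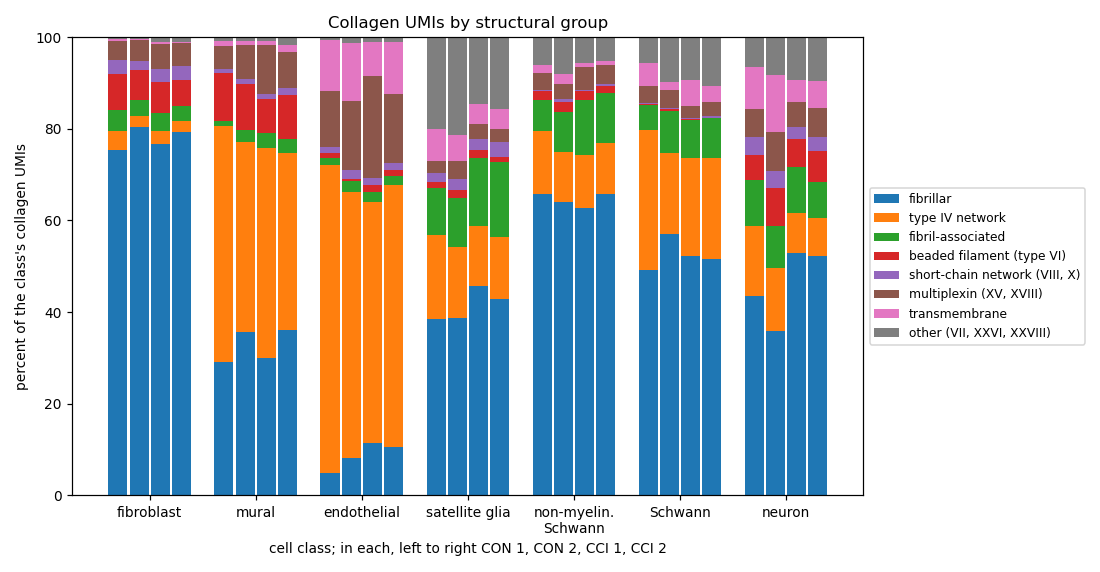
Share of a class's collagen UMIs by structural group, 1 bar per library. Fibrillar chains take 75.3% to 80.3% in fibroblast-like cells, type IV takes 52.6% to 67.3% in endothelial-like cells, and satellite glia-like cells hold 14.6% to 21.4% in the group with Col28a1.

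Neuron-like cells held little collagen, but a large part of the UMIs of some chains. In CON they held a mean of 98.4% of the Col10a1 UMIs of kept cells, 85.7% of Col6a4, 71.4% of Col24a1, 62.4% of Col7a1 and 41.0% of Col6a5, against 5.79% of all collagen UMIs (n = 2 libraries). In CCI the means were 84.2% of Col10a1, 91.2% of Col6a4, 79.2% of Col24a1, 87.7% of Col7a1 and 76.3% of Col6a5, against 8.02% of all collagen UMIs. Neuron-like cells held more UMIs per cell than the other classes, so these shares are not levels. They held 45012679 of the 70840213 UMIs of kept cells in CON replicate 1 and 29059039 of 48689178 in CON replicate 2. The counts were 89680765 of 126212141 in CCI replicate 1 and 59515707 of 106878902 in CCI replicate 2. The CON mean of Col7a1 was near this part of all UMIs, and that of Col6a5 was below it. Among neuron clusters of the clustering without integration, Col18a1 stood at 52.2, 48.1, 35.0 and 46.7 CPM in the Bmp8a-led cluster, against 3.30 to 4.46 in neuron-like cells as a whole. Col24a1 was concentrated in a cluster led by Gm45159 and Gm43376, at 104, 128, 143 and 50 CPM, values that rest on 38, 9, 161 and 12 UMIs. That cluster held 71, 6, 137 and 43 cells and met 5 of 10 neuron markers, with the noncoding RNAs Miat, Snhg11 and Meg3 among its top genes. Col25a1, a transmembrane collagen, stood at 9.78, 8.97, 6.01 and 7.69 in the Sstr2-led cluster.

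The effect of CCI was then tested on UMIs summed per library and class. With the quasi-likelihood test of edgeR and Benjamini-Hochberg adjustment, 3 of 34 tested collagen genes passed in neuron-like cells, all higher in CCI. In that class 4.2% of all 15581 genes passed and were higher, 0.693% passed and were lower, and 4.9% passed in either direction. With DESeq2 4 collagen genes passed, these 3 and Col3a1, against 6.32% of all genes. In edgeR 7 had an unadjusted p under 0.05, against 17.9%. The 12 fibroblast markers summed to 233.5 and 124 CPM in neuron-like cells of CON and 210.1 and 357 in those of CCI. Col1a2 was 0.0864 to 0.102 times the UMIs of Dcn there, against 0.106 to 0.267 times in fibroblast-like cells. The part of fibroblast RNA in the Col3a1 value was not tested. No collagen gene passed in the other 4 classes.

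Col7a1, the chain of the anchoring fibrils of skin (GRCm38 chr9:108953586-108984875), had 28 and 20 UMIs in CON and 569 and 398 in CCI. Its level was 0.622 and 0.688 CPM in CON and 6.35 and 6.69 in CCI. The groups did not overlap, and Col7a1 rose by a log2 fold change of 3.40 (SE 0.28, edgeR adjusted p = 0.000372, 2 libraries per group). Col6a5, a type VI chain (chr9:105856070-105962463), stood at 0.200 and 0.206 in CON and 1.65 and 1.40 in CCI. It rests on 9 and 6 UMIs in CON against 148 and 83 in CCI, and rose by 2.98 (SE 0.40, edgeR adjusted p = 0.00413). Col5a3 (chr9:20770050-20815117) stood at 10.0 and 5.44 in CON and 29.6 and 15.7 in CCI. It rose by 1.62 (SE 0.34, edgeR adjusted p = 0.0307), with the CCI libraries further apart than the CON libraries.

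**Figure D5:**
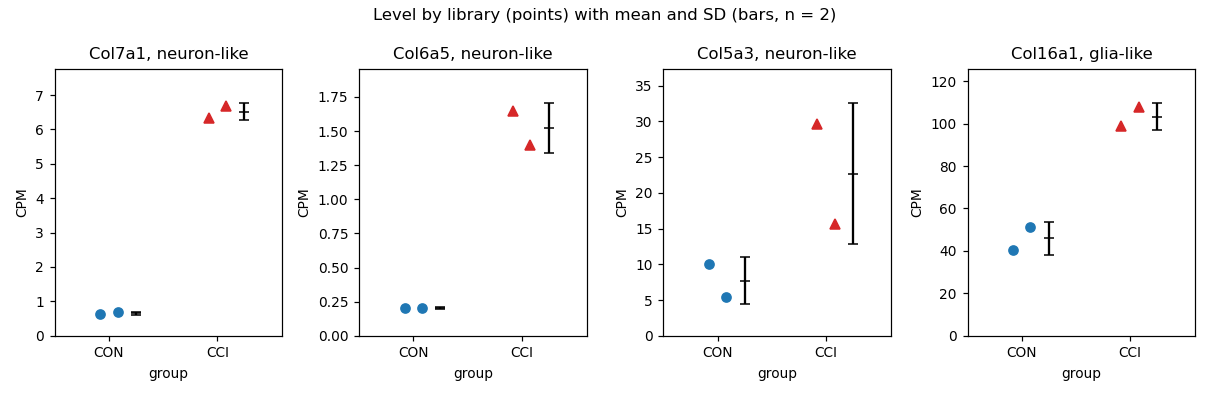
CPM of Col7a1, Col6a5 and Col5a3 in neuron-like cells and of Col16a1 in glia-like cells, by library (points), with mean and SD (n = 2 per group). Both CCI libraries lie above both CON libraries in all 4 panels. The genes were picked because they passed or had the smallest p in glia-like cells, so this adds no support. Col16a1 did not pass the test.

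A cluster led by Crh and Kcnk16, which held 2 and 1 cells in CON and 431 and 264 in CCI, carried most of Col7a1 and Col6a5. It was 20.1% and 18.9% of neuron-like cells of the CCI libraries in the clustering without integration, and held 67.2% and 81.2% of their Col7a1 UMIs and 72.9% and 90.8% of their Col6a5 UMIs. Col7a1 stood at 13.5 and 18.4 CPM in it and at 3.01 and 1.78 in the other neuron-like cells of CCI. The cluster held 28397435 of the 90457537 UMIs of neuron-like cells in CCI replicate 1 and 17633096 of 59802135 in CCI replicate 2. Its shares of Col5a3 UMIs were 38.2% and 57.2%, at 36.3 and 30.7 CPM against 26.9 and 9.63 in the other neuron-like cells. Without this cluster, Col7a1 had a log2 fold change of 1.89 (edgeR adjusted p = 0.0628) and Col5a3 of 1.30 (edgeR adjusted p = 0.387). Col6a5 was not tested, and no collagen gene passed. The share of all genes that passed in that fit was not taken, so this is not read as a result about collagens. Col5a3 was higher still in the Gm45159-led cluster, at 581 and 192 in CCI against 76.5 and 171 in CON, where the CON values rest on 28 and 12 UMIs.

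In glia-like cells 0 of 32 tested collagen genes passed, as did 0% of all 13943 genes. Without adjustment 4 collagen genes had p under 0.05, against 2.51% of all genes, and 0 passed with DESeq2, where 0.188% of all genes did. Col16a1, a fibril-associated collagen, had the smallest p of the 4. It stood at 40.5 and 51.2 CPM in CON and 98.8 and 108 in CCI, with no overlap, a log2 fold change of 1.26 (SE 0.22) and an edgeR adjusted p of 0.9997. The split was seen in satellite glia-like cells, at 42.6 and 48.4 against 109.5 and 101, and in non-myelinating Schwann-like cells, at 83.9 and 92.4 against 195 and 167. In Schwann-like cells it was 7.29 and 25.4 against 30.4 and 35.2, a log2 fold change of 1.16 (SE 0.60) at an unadjusted edgeR p of 0.113.

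In fibroblast-like cells 0 of 30 tested collagen genes passed and 0% of 10521 genes did. Without adjustment 7 had p under 0.05, 3 higher and 4 lower, against 5.1% of all genes, and with DESeq2 0 passed, against 0.333% of all genes. The median log2 fold change of the 30 was -0.54, against 0.00 over all genes tested. CON replicate 2 was the highest library for Col1a2, Col3a1 and Col1a1, and its part in this median was not tested. The 4 lower genes, Col12a1, Col8a2, Col4a3 and Col4a1, kept a negative log2 fold change in all 10 alternatives. The 3 higher ones, Col9a3, Col2a1 and Col28a1, kept a positive one. These genes were picked by p in the libraries that the alternatives fit again, so the kept signs are not separate support. Col4a3 and Col9a3 rest on 45 and 88 UMIs in the fibroblast-like cells of all libraries. Col12a1 stood at 276, 505, 180 and 128 CPM, a log2 fold change of -1.17 (SE 0.39, edgeR adjusted p = 0.852). Within the Mfap4-led cluster its CCI values lay between the CON values. In endothelial-like cells 0 of 25 passed and 0% of 12126 genes did, with 6 at an unadjusted p under 0.05, against 3.21% of all genes, and 0 with DESeq2, against 0.0709%. Of these 6, 4 had a positive and 2 a negative log2 fold change. The positive ones were Col1a1 at 2.24 (SE 0.53), with the smallest p of the 6, Col17a1 at 1.67 (SE 0.62), Col16a1 at 1.48 (SE 0.43) and Col3a1 at 0.73 (SE 0.24), and the negative ones Col4a3 at -1.01 (SE 0.30) and Col4a4 at -1.06 (SE 0.36). The 12 fibroblast markers summed to 132 and 65.8 CPM in endothelial-like cells of CON and 268 and 398 in those of CCI, 10 of them above 0 in all 4 libraries, and their part in these values was not tested. In mural-like cells 0 of 23 passed and 0% of 10222 genes did, with 0 at an unadjusted p under 0.05, against 1.83% of all genes, and 0 with DESeq2, against 0.0476%.

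The difference of the CCI effect between fibroblast-like cells and each other class was tested with an interaction term. No collagen gene of 38 passed in any of the 4 contrasts in edgeR, with 0, 6, 3 and 7 at an unadjusted p under 0.05 for mural-like, glia-like, endothelial-like and neuron-like cells, against 3.64%, 3.34%, 3.86% and 5.16% of all genes. Over all 14802 genes 0.0878% passed in the neuron-like contrast and 0% in the others. Col6a5 came nearest, with a difference of 3.74 between the log2 fold changes of neuron-like and fibroblast-like cells (SE 0.68, edgeR adjusted p = 0.130). For Col5a3 this difference was 2.24 (SE 0.63, edgeR adjusted p = 0.500). In fibroblast-like cells alone Col6a5 and Col5a3 had log2 fold changes of -0.89 (SE 0.50) and -0.89 (SE 0.42), neither past the threshold. Col7a1 was not tested in fibroblast-like cells alone. In the interaction its difference between neuron-like and fibroblast-like cells was 2.62 (SE 2.22) and did not pass. In glia-like cells Col7a1 had a log2 fold change of 1.14 (SE 0.72) and did not pass. A CCI effect particular to neuron-like cells is therefore not shown for Col7a1, Col6a5 or Col5a3.

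Genes that process, bind or cut collagen were read in the same fits. In the 4 classes other than neuron-like cells none of them passed in edgeR, nor did any other gene. In neuron-like cells 3 of 33 tested collagen processing genes rose and 0 fell, where 4.2% of all genes tested rose and 4.9% passed in either direction. Bmp1, the protease that removes the C-terminal propeptide of procollagens, stood at 1.91 and 1.27 CPM in CON and 9.20 and 7.71 in CCI, and rose by 2.47 (SE 0.27, edgeR adjusted p = 0.00135). Pcolce2, an enhancer of that cleavage, stood at 30.7 and 22.3 against 57.1 and 48.1, and Plod3, a lysyl hydroxylase, at 16.4 and 18.7 against 30.3 and 30.9. Of 10 tested collagen receptors none passed. Of 15 basement membrane partners 1 rose, Lamb3, a laminin chain, at 0.111 and 0.0688 against 1.70 and 1.70. Of 6 collagenases, gelatinases and their inhibitors 1 rose, the inhibitor Timp1, at 3.56 and 2.48 against 60.5 and 72.3, a log2 fold change of 4.53 (SE 0.24, edgeR adjusted p = 4.68e-05). Its log2 fold change was also positive in fibroblast-like (2.06, SE 0.31), mural-like (5.60, SE 1.085), glia-like (2.72, SE 0.46) and endothelial-like cells (2.585, SE 0.97). Each of these had an unadjusted edgeR p under 0.05 without passing, so the rise of Timp1 is not shown to be particular to neuron-like cells. In fibroblast-like cells the processing genes with the highest levels were Sparc, a collagen-binding matrix protein, at 5024 to 10480, Pcolce at 546 to 1608 and Serpinh1, the collagen chaperone, at 619 to 1458.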

How the data were processed

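Droplet RNA sequencing of 4 DRG libraries was used, 2 CON and 2 CCI. The authors deposited UMI counts per gene and barcode from Cell Ranger 5.0.1 on mm10, before their downsampling and cell filter. A barcode needed over 500 genes and a mitochondrial share below 20%. The 13 mitochondrial genes were then dropped. The labels name collagenase II digestion, the study's methods Liberase and papain.

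Libraries were integrated with Seurat 5.3.0 (2000 features, 23 collagen genes left out, 10 principal components, resolution 0.8). A cluster was named from at least 3 markers 1.5 times the mean of other cells. Doublets were not removed. Clusters with neuron markers at low UMI counts were kept apart. Sums of UMIs over the cells of a class in each library entered edgeR 4.0.16, whose quasi-likelihood test was run with TMM factors, the filterByExpr filter and an adjusted p threshold of 0.05. Alternatives were DESeq2 1.42.0, upper-quartile factors, all genes unfiltered, each library left out, a replicate block, a cell filter of over 1000 genes and below 10% mitochondrial UMIs, clusters made without integration, cells with Dcn or Lum left out, and single kinds of glia. The count tests were tested on simulated data. Coordinates come from RefSeq on GRCm38.

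Named genes were the 5 highest collagens per class (not each with its level there), every collagen that passed, their partner chains, the least abundant members, and of 4 accompanying lists the highest and those that passed. Others, and the clusters described, were chosen after their values were seen. The members and lists were chosen with earlier results of these data known.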

Additional observations from a re-analysis of the deposited data

Results flagged for a closer look

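Neuron-marker barcodes with few UMIs took part in no comparison, and a signal was seen there above the CON libraries. Col7a1 had 2 and 0 UMIs in CON and 22 and 24 in CCI, a mean of 6.02 CPM in CCI. Col6a5 had 1 and 0 UMIs in CON and 6 and 4 in CCI, a mean of 1.26 CPM in CCI. Neither was tested.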

How the results depend on the processing

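The count of 3 collagen genes in neuron-like cells was 6 with no filter on low counts and 0 without the Crh- and Sprr1a-led cluster, an alternative chosen after seeing the data, where Col7a1 had a log2 fold change of 1.89 and Col5a3 of 1.30. Leaving out 1 library gave 3 to 10: 10 without CON replicate 1, 6 without CON replicate 2 and 5 without CCI replicate 1. Col7a1, Col6a5 and Col5a3 passed under each other setting tried in neuron-like cells. The share of all genes that passed was not taken with no filter on low counts or with a library left out. The higher counts in those fits are therefore not read as a result about collagens. In the other 4 classes and the interaction the count of collagen genes that passed stayed at 0 in every alternative run. With the replicate block, a number shared by libraries whose deviations correlated at 0.279 to 0.612 over genes, the count was 3 in neuron-like cells and 0 in the other 4 classes. The interaction has the library as a block already and was not run with the replicate number. With 2 pairs this does not show that the numbers pair the libraries.

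With cells holding Dcn or Lum left out, the fibroblast-like share of collagen UMIs in CON was 36.2% against 29.0%, and the collagen share of neuron-like UMIs in CCI was 0.00844% against 0.00966%. With the stricter cell filter the latter was 0.00925%. The first also removes glia, since satellite glia-like cells carried Lum at 27.1 to 70.3 CPM. Leaving out a library gave fibroblast-like shares of 25.1% to 32.8% in CON and 30.9% to 57.8% in CCI. The 45 fibroblast-like cells of CON replicate 2 limit what the fibroblast-like tests can show.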
